A study of Mus musculus with 24 samples.

Results

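Hox genes encode homeodomain transcription factors that give cells their position along an axis of the embryo. In mammals they lie in clusters A, B, C and D, in which the order of the genes along the chromosome follows the order in which they are switched on, and genes at the same place in different clusters are called paralogs. In the limb bud the genes of clusters A and D at the 5′ end (paralog groups 9 to 13) are known to pattern the segments from shoulder to digits, with groups 9 and 10 acting in the upper arm, group 11 in the forearm and group 13 in the hand plate. The 39 genes described here were those with a name made of Hox, a cluster letter and a paralog number and annotated as protein-coding, out of 25844 genes with counts. Cluster A had 11 of them on chromosome 6 (minus strand). Cluster B had 10 on chromosome 11 (chr11:96194316-96368256, mm10), cluster C had 9 on chromosome 15 (chr15:102921103-103036852) and cluster D had 9 on chromosome 2 (chr2:74668310-74765142), all on the plus strand.

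Poly-A RNA was sequenced from forelimb buds of CD1 mouse embryos taken at gestation day 13 and held in culture. Cultures received the solvent DMSO (control), 1 µM or 10 µM of BPDP, tert-butylphenyl diphenyl phosphate, an organophosphate flame retardant and plasticizer, for 3 or 24 h. Each of the 6 groups had 4 libraries, and all of them were explants of the same stage and strain, with no uncultured limb bud among them. The labels do not say whether the replicates came from separate cultures or litters, so p-values measure the spread between these libraries, which may be technical.

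Total counts ran from 14165947 to 20823058 per library. Tbx5, the forelimb identity factor, stood at 181 to 304 CPM (counts scaled to the library total) over the 24 libraries. The hindlimb factors Tbx4 and Pitx1 stood at 14.8 to 23.3 and 1.88 to 11.3 CPM, below Tbx5 in every library. Meis1 and Meis2, which mark the proximal limb, were detected in every library, at 9.39 to 21.8 and 15.3 to 50.8 CPM. The 6 cartilage markers summed to 6122 to 9675 CPM in 24 h controls, against 3560 to 5072 CPM in 3 h controls, and the 8 cell cycle markers to 737 to 861 CPM, against 1225 to 1358 CPM.

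The limb buds expressed the 5′ genes of clusters A and D above all. Levels between genes are compared as CPM per kilobase of the gene length given with the counts. For some genes that length is below the bases covered by all annotated exons in GENCODE vM21. It was 2565 against 3270 bases for Hoxa10 and 3226 against 5580 for Hoxa9, so the order of genes with near levels may depend on the length used. Hoxd13, which with Hoxa13 specifies the digits, had the highest level of the 39 genes at 119 ± 20.2 CPM per kb (SD, n = 24 libraries), above 98.2% of all genes. It was followed by Hoxa10 at 48.4 ± 7.67 and Hoxd12 at 43.1 ± 5.32 CPM per kb, whose ranges over the libraries overlapped, and by Hoxa13 at 29.3 ± 4.77 CPM per kb. Hoxd10 (25.2 ± 4.36), Hoxd11 (24.4 ± 4.84), Hoxd9 (18.9 ± 3.45), Hoxa9 (17.9 ± 3.82) and Hoxa11 (14.8 ± 1.78 CPM per kb) came next, each overlapping its neighbours in this order. These 9 genes, all of groups 9 to 13 in clusters A and D, were the ones at or above 10 CPM per kb. Hoxd8 stood between them and the rest at 8.71 ± 0.94 CPM per kb.

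The remaining 29 genes averaged less than 4 CPM per kb. Of all 39, 12 lay between 1 and 10, 16 between 0.1 and 1 and 2 under 0.1 CPM per kb. Hoxc12 (3.50 ± 1.34) and Hoxc13 (3.28 ± 1.20 CPM per kb) were the highest of cluster C, the cluster known mainly from the hindlimb and from hair and nail. No gene of cluster B reached a mean of 1 CPM per kb over the 24 libraries, though Hoxb4 reached 1.73 in a single library. The highest mean was that of Hoxb4 at 0.885 CPM per kb, and Hoxb9 averaged 0.556 CPM per kb. Hoxb1, a hindbrain gene, had no read in 17 of 24 libraries, and Hoxb13, a gene of the tail and hindgut end, had none in 22. Summed over genes, cluster D gave a median of 62.0% of the Hox CPM per kb in a library, cluster A 32.0%, cluster C 4.24% and cluster B 0.983%. By position, groups 9 to 13 gave 91.5%, groups 4 to 8 gave 7.29% and groups 1 to 3 gave 1.11%.

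**Figure D1:**
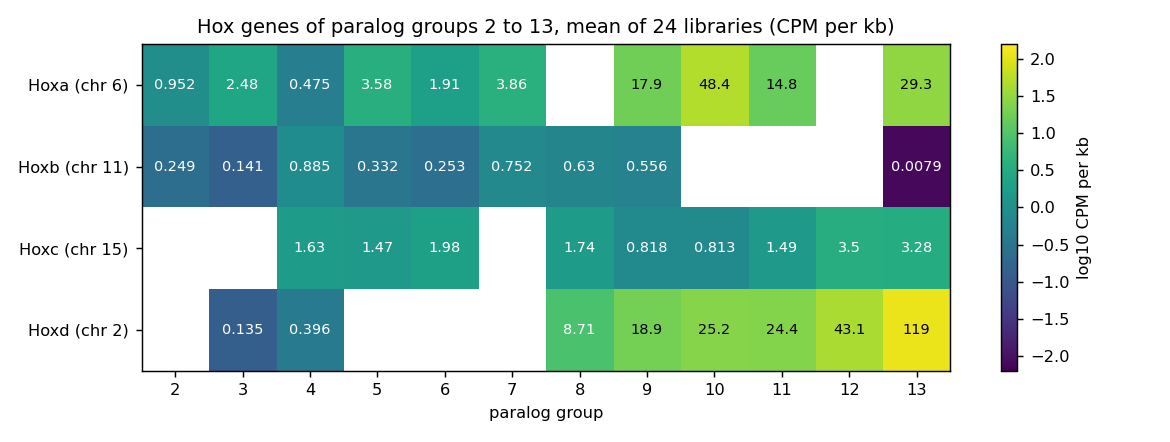
Mean level of the Hox genes of paralog groups 2 to 13 over 24 libraries, in CPM per kb (printed in each square, colour on a log10 scale), by cluster (rows) and paralog group (columns). Blank squares are places with no gene; the bright squares lie in groups 9 to 13 of the Hoxa and Hoxd rows, with Hoxd13 at 119 CPM per kb, while every Hoxb square is below 1.

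Paralogs resemble each other most in the homeobox, the 180 bases that encode the DNA-binding homeodomain, so the stretch around its recognition helix is shown for 8 of the genes that the results below turn on. The sequences are coding strand from GENCODE vM21 transcripts (GRCm38, the same assembly as mm10), 54 bases each, and capitals mark the codons of the conserved core of the helix that contacts DNA.
Hoxa10: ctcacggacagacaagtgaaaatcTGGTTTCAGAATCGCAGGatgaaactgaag
Hoxa13: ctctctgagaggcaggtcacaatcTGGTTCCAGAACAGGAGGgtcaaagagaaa
Hoxb9: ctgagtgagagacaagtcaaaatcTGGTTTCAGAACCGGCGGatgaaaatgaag
Hoxc4: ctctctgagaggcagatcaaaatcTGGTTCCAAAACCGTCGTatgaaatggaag
Hoxc12: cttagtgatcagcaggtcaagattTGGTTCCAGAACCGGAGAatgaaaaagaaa
Hoxd11: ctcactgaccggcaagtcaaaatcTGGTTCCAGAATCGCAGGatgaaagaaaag
Hoxd12: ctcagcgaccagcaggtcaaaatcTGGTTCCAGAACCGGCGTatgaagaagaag
Hoxd13: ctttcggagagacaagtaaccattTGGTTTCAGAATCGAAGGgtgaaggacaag
Over the whole homeobox, genes of the same paralog group shared a median of 80.6% of bases (67.2 to 93.9%, 42 pairs), against 60.6% (46.1 to 88.9%, 691 pairs) for genes of different groups. Hoxa13 and Hoxd13 shared 73.9%, Hoxb9 and Hoxd9 84.4%, and Hoxc4 and Hoxc5 71.1%. Outside loci whose gene models overlap, the longest run of identical bases between transcripts of 2 Hox genes was 50 within and 52 between paralog groups, so none of these pairs shared a run of 100 bases. Read length was not used here, and whether paralogs shared reads was not tested. Another limit comes from overlapping gene models: 16 of the 39 genes shared exon bases with another gene. Of these, 10 did so with a gene on the opposite strand and 9 with a gene on the same strand. Whether the counting used strand is not given in the sources used here, so reads of opposite-strand pairs cannot be told apart. Strand would not separate reads of same-strand pairs. Of the genes in the results, Hoxa11 shared 35.0% of its exon bases with its antisense RNA Hoxa11os, and Hoxc5, whose annotated locus (chr15:102967443-103017429) spans Hoxc6, Hoxc8 and Hoxc9, shared 166 bases with Hoxc10. Hoxd11 shared 455 bases (10.8%) and Hoxd10 104 bases (5.7%) with Gm28309, a gene on the same strand.

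The first question was how the Hox genes moved during culture, asked at each dose with groups that share no library. At each dose most of the 5′ genes that dominated the limb bud had log2 fold changes below 0, of which 1 to 4 per dose passed the test, and a few weakly expressed genes fell by more. The summed Hox level in controls was 351 ± 23.5 CPM per kb at 24 h, against 417 ± 45.1 CPM per kb at 3 h (SD, n = 4 each). With 1 µM it was 329 ± 47.4 CPM per kb at 24 h, against 407 ± 36.1 at 3 h, and with 10 µM 357 ± 23.4 CPM per kb at 24 h, against 446 ± 21.1 at 3 h. Among genes of groups 9 to 13 in clusters A and D, log2 fold changes (24 h over 3 h) were below 0 for 9 of 9 in controls (median -0.22). They were below 0 for 9 of 9 with 1 µM (median -0.28) and 8 of 9 with 10 µM (median -0.16), Hoxa11 being the one above. Of all tested genes, 7641 of 15640, 7568 of 15462 and 7910 of 15434 were below 0, in that order of doses. The 9 genes are neighbours in their clusters and were read in the same libraries, so their signs are not independent. In bulk samples, fewer cells of a type and less RNA per cell cannot be told apart.

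Hoxd13 showed this in each dose. It stood at 243, 261, 269 and 275 CPM in 24 h controls (replicates 1 to 4, the order used throughout), against 290, 374, 342 and 311 CPM in 3 h controls. With 1 µM it stood at 203, 222, 269 and 282 CPM at 24 h, against 310, 352, 344 and 340 CPM at 3 h. With 10 µM it stood at 233, 251, 257 and 283 CPM at 24 h, against 325, 341, 368 and 373 CPM at 3 h. In each dose every 24 h library was below every 3 h library. The log2 fold change was -0.31 ± 0.0986 in controls (SE, adjusted p = 0.0651, edgeR quasi-likelihood test with Benjamini-Hochberg adjustment over all genes; 0.0142 with DESeq2), -0.47 ± 0.0944 with 1 µM (adjusted p = 0.00201) and -0.35 ± 0.0852 with 10 µM (adjusted p = 0.00497).

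Hoxa10, which patterns the upper arm together with its paralogs, stood at 96.6, 131, 90.0 and 106 CPM in 24 h controls, against 129, 155, 138 and 123 CPM in 3 h controls. With 1 µM it stood at 92.2, 95.7, 107 and 123 CPM at 24 h, against 113, 144, 125 and 142 CPM at 3 h. Both pairs of groups overlapped by 1 or more libraries, and the gene fell by 0.35 and 0.33 on the log2 scale (adjusted p = 0.0320 and 0.0121, edgeR). With 10 µM it stood at 118, 126, 114 and 127 CPM at 24 h, against 162, 141, 143 and 139 CPM at 3 h, which do not overlap, with a log2 fold change of -0.16 (adjusted p = 0.0617). Hoxa13, the cluster A partner of Hoxd13, stood at 49.9, 58.3, 71.8 and 69.9 CPM at 24 h with 1 µM, against 74.0, 73.3, 77.8 and 89.8 CPM at 3 h, groups that do not overlap (log2 fold change -0.34 ± 0.103, adjusted p = 0.0263). In controls its log2 fold change was -0.26 (adjusted p = 0.0797, 0.0460 with DESeq2), and with 10 µM -0.17.

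Their neighbours in cluster D followed less evenly. Hoxd11, a forearm gene, stood at 70.2, 80.9, 66.9 and 78.0 CPM at 24 h with 10 µM, against 106, 94.9, 114 and 105 CPM at 3 h. These groups were well apart, with a log2 fold change of -0.39 ± 0.0782 (adjusted p = 0.00123, edgeR). The log2 fold change of Hoxd11 was -0.42 with 1 µM and -0.20 in controls, neither of them called. Its paralog Hoxa11 stood at 33, 38.3, 31.8 and 38.8 CPM at 24 h with 10 µM, against 36.2, 38.2, 35.5 and 34.6 CPM at 3 h, overlapping throughout (log2 fold change 0.08). In controls Hoxa11 stood at 21.7, 31.9, 31.7 and 30.1 CPM at 24 h, against 32.5, 37.0, 37.9 and 33.8 CPM at 3 h, which do not overlap (log2 fold change -0.28, adjusted p = 0.187). Hoxd12 was called with 1 µM alone, at 84.1, 82.9, 97.9 and 109 CPM at 24 h, against 91.2, 125, 115 and 121 CPM at 3 h (log2 fold change -0.28 ± 0.0964, adjusted p = 0.0482), and those groups overlap.

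Hoxb9 and Hoxc5 had the larger fold changes at low counts. Hoxb9, a gene of the flank and trunk whose early limb expression is known to help place the limb signalling centre, stood at 0.995, 0.328, 0.205 and 0.801 CPM in 24 h controls, against 1.91, 2.89, 1.79 and 3.25 CPM in 3 h controls. With 1 µM it stood at 0.576, 0.403, 0.212 and 0.556 CPM at 24 h, against 1.76, 1.66, 2.83 and 1.92 CPM at 3 h. Every 24 h library was below every 3 h library in both, on 4 to 17 reads at 24 h, and the log2 fold changes were -2.06 ± 0.496 (adjusted p = 0.0188, edgeR) and -2.23 ± 0.429 (adjusted p = 0.00155). With 10 µM it stood at 0.703, 0.562, 0.550 and 2.10 CPM at 24 h, against 2.07, 1.52, 1.91 and 2.85 CPM at 3 h. Replicate 4 at 24 h lay among the 3 h libraries, and the log2 fold change was -0.99 ± 0.458 (adjusted p = 0.114).

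Hoxc5, a neck and upper trunk gene, stood at 1.41, 1.12, 1.71 and 0.954 CPM at 24 h with 10 µM, against 3.11, 3.54, 6.71 and 6.04 CPM at 3 h. Those groups do not overlap, and the log2 fold change was -1.78 ± 0.334 (adjusted p = 0.000771, edgeR). With 1 µM it stood at 2.82, 2.75, 3.13 and 3.95 CPM at 24 h, against 6.42, 3.92, 5.09 and 6.27 CPM at 3 h, and the groups overlap by 1 library (log2 fold change -0.79 ± 0.237, adjusted p = 0.0263). Hoxc12 and Hoxc4 were called with 10 µM and not in controls or with 1 µM, and the change over time with 10 µM minus that in controls was not called for either (adjusted p = 0.198 and 0.572, edgeR). Hoxc12 stood at 0.804, 3.15, 2.5 and 1.72 CPM at 24 h, against 5.99, 4.34, 5.22 and 4.93 CPM at 3 h (log2 fold change -1.22 ± 0.333, adjusted p = 0.0111), where its log2 fold change was 0.08 in controls and -0.01 with 1 µM. Hoxc4 stood at 2.91, 1.8, 2.02 and 1.78 CPM at 24 h, against 4.61, 3.03, 5.08 and 4.30 CPM at 3 h (log2 fold change -0.88 ± 0.274, adjusted p = 0.0229), where it was -0.24 in controls and -0.48 with 1 µM. Neither pair of groups overlaps.

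Counted over the cluster genes, all calls over time were falls. In controls 2 of the 32 tested Hox genes were called (Hoxa10 and Hoxb9), where 9.55% of all tested genes were called and 4.10% were called lower. With 1 µM 6 of 32 were called (Hoxa10, Hoxa13, Hoxb9, Hoxc5, Hoxd12 and Hoxd13), against 22.1% of all genes, 9.90% lower. With 10 µM 5 of 32 were called (Hoxc4, Hoxc5, Hoxc12, Hoxd11 and Hoxd13), against 31.7% of all genes, 14.9% lower. Libraries of 24 h lay wholly below those of 3 h for 3 Hox genes in controls, 3 with 1 µM and 11 with 10 µM, against 9.07%, 10.9% and 23.7% of all genes. The median Hox log2 fold change was -0.20 in controls, -0.19 with 1 µM and -0.29 with 10 µM, where that of all genes was 0.01, 0.01 and -0.01.

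Across the doses, 31 Hox genes were tested in each time comparison. Of them 14 were below 0 in all 3 and 5 above 0 in all 3 (Hoxa6, Hoxa7, Hoxb5, Hoxd4 and Hoxd8). Counts over doses, of direction or of calls, were not made for all genes, so whether those of the Hox genes are unusual cannot be told. Called at 2 doses were Hoxa10, Hoxb9, Hoxc5 and Hoxd13, and edgeR called no Hox gene at all 3. DESeq2 called Hoxd13 and Hoxa10 at all 3, with adjusted p in controls of 0.0142 for Hoxd13 and, with 10 µM, 0.0476 for Hoxa10. The authors' deposited table listed Hoxd13 in controls at -0.30 on the log2 scale (adjusted p = 0.0194). A contrast of the 12 libraries of 24 h with the 12 of 3 h, averaged over the doses in a single fit, was added after those results were seen. It called 12 of 36 tested Hox genes, 11 lower and Hoxd8 higher, against 43.8% of all genes, 22.2% lower. In it Hoxd13 fell by 0.39 ± 0.0538, Hoxa10 by 0.29 ± 0.0475, Hoxb9 by 1.77 ± 0.275 and Hoxc5 by 1.09 ± 0.206 on the log2 scale (SE), and Hoxd8 rose by 0.15 (adjusted p = 0.0460, edgeR).

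Several of these calls passed the threshold or not by single libraries, while the fold changes kept their direction. In controls the count went to 0 without 3 h replicate 2 or 4, and to 1 (Hoxb9) without 3 h replicate 3 or 24 h replicate 1, 3 or 4, with log2 fold changes of -0.43 to -0.30 for Hoxa10 and -2.46 to -1.79 for Hoxb9 over these runs. With 1 µM it went to 3 (Hoxa10, Hoxb9 and Hoxd13) without 3 h replicate 3 or 4 or 24 h replicate 1, where log2 fold changes over the runs were -0.40 to -0.26 for Hoxa13, -0.93 to -0.68 for Hoxc5 and -0.36 to -0.24 for Hoxd12. With 10 µM leaving out a library gave 4 to 7. The call of Hoxc4 with 10 µM was lost without 3 h replicate 3 or 4 or 24 h replicate 2 or 4 (adjusted p of 0.0542 to 0.0767), with log2 fold changes of -1.07 to -0.78 over the runs. The fall of Hoxd13 with 1 µM was called under all 16 of 16 settings tried. All 8 cell cycle markers fell and 5 of 6 cartilage markers rose over time at each dose, with summed levels at 24 h against 3 h of 426 to 473 against 1267 to 1464 CPM (cell cycle) and 8786 to 12123 against 3377 to 5431 CPM (cartilage) with 10 µM. Limb mesenchyme markers had median log2 fold changes of -0.33 in controls, -0.14 with 1 µM and -0.19 with 10 µM. Of these 5 markers, 1 was called lower in controls and 2 with 1 µM. Macrophage markers rose for 5 of 6 in controls and 4 of 6 with 1 µM, while with 10 µM 1 of 6 rose and 4 fell. Endothelial markers fell for 1, 2 and 5 of 6, Schwann cell markers for 3, 3 and 2 of 6 and erythroid markers for 1, 5 and 2 of 5 in controls, with 1 µM and with 10 µM. Of 7 skeletal muscle markers 3 rose at each dose, and of 6 epidermis markers 2, 3 and 2 rose and, with 10 µM, 1 fell. Of 6 RNA quality and stress genes 1 fell in controls and 2 with 1 µM, while with 10 µM 2 rose and 2 fell. Of all tested genes, 9.55% were called over time in controls, 22.1% with 1 µM and 31.7% with 10 µM. Marker counts near those shares do not set a list apart. The part of these marker changes in the Hox results was not tested.

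**Figure D2:**
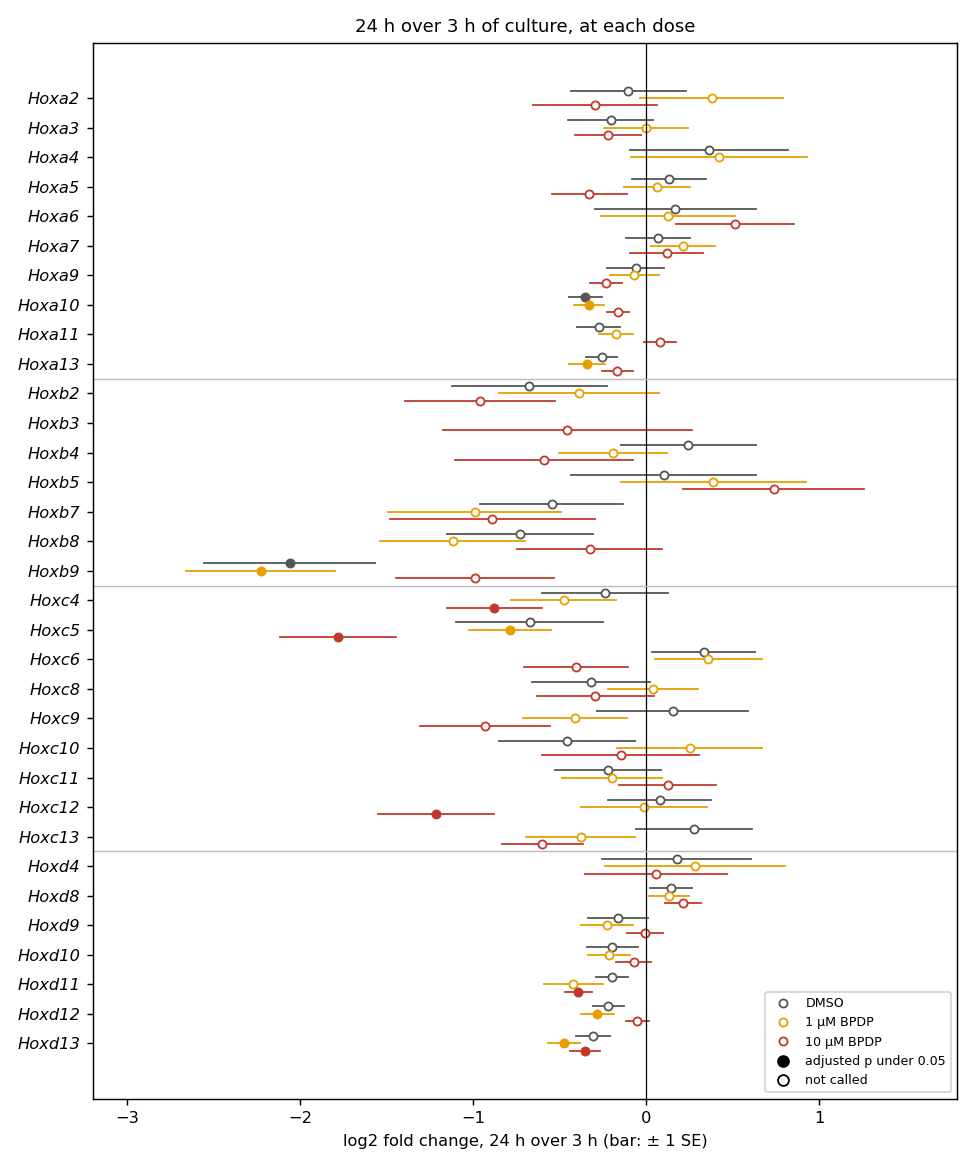
Log2 fold change of each tested Hox gene, 24 h over 3 h, at each dose (points, bars ± 1 SE); filled points have an adjusted p under 0.05, and lines divide the clusters. Filled points all lie left of 0, and Hoxa10, Hoxa13 and Hoxd9 to Hoxd13 lie at or below 0 at every dose.

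**Figure D3:**
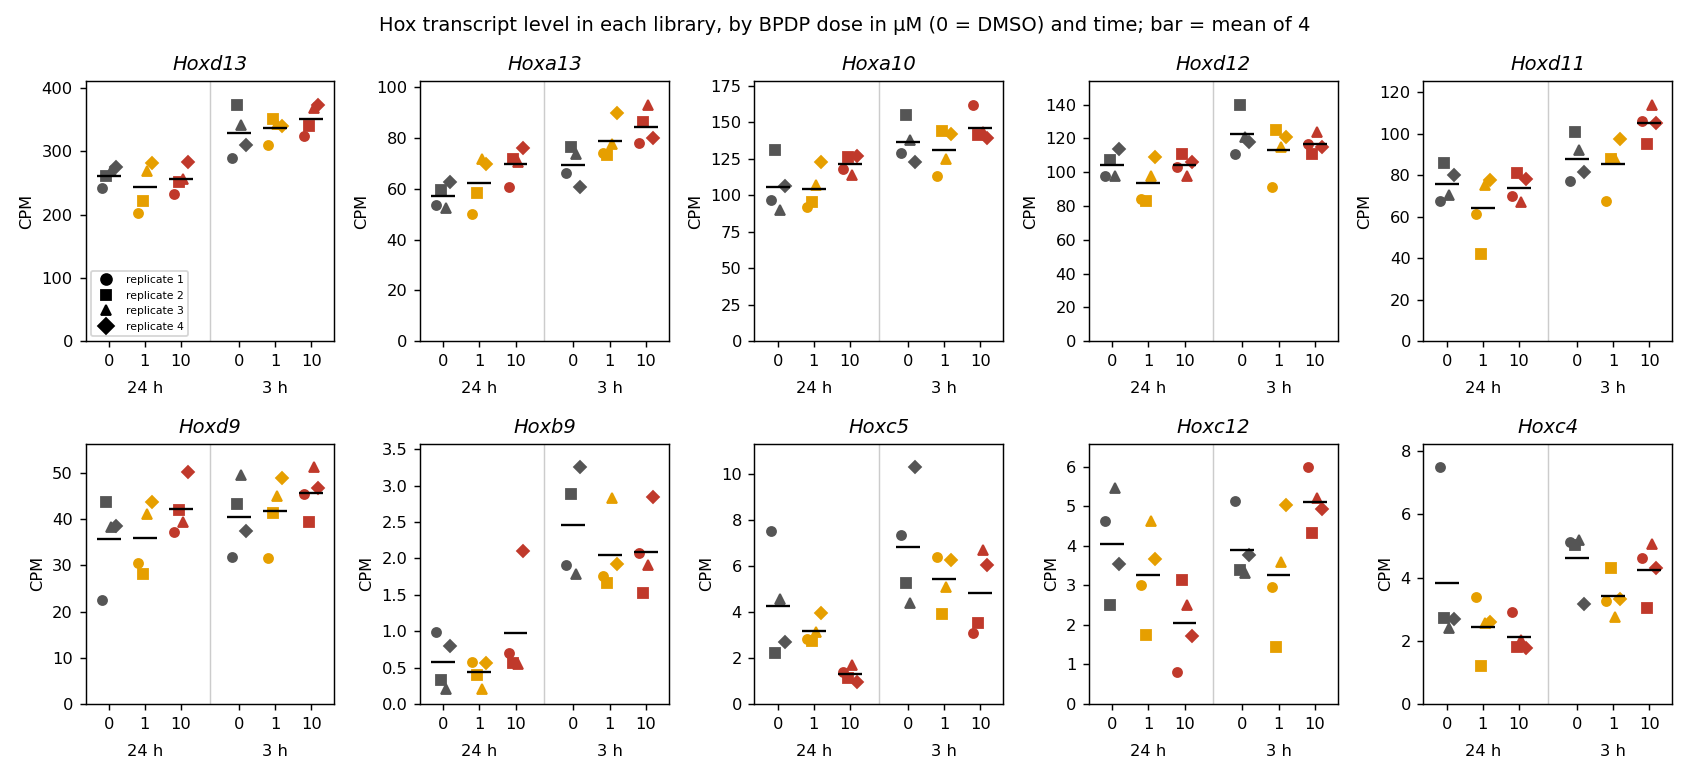
CPM of 10 Hox genes in each of the 24 libraries, by BPDP dose (0 is DMSO) and time, with the symbol giving the replicate number and the bar the mean of 4. Hoxd13 separates the times at every dose, and Hoxc5 is at 0.954 to 1.71 CPM with 10 µM at 24 h, below all other libraries.

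The 250 bases before the annotated RNA start are shown for Hoxd13, Hoxd12, Hoxa13 and Hoxa10, which are the strongly expressed genes called lower over time in controls or with 1 µM, to set promoters of genes that moved together side by side. For Hoxa10, which has 2 windows, the one at the start of the deposited gene model is shown. They are from RefSeq on GRCm38 (mm10), 5′ to 3′ on the strand of the gene, with capitals marking the letters TATAAA or the letters CCAAT on either strand.
Hoxd13 chr2:74667975-74668224, plus strand: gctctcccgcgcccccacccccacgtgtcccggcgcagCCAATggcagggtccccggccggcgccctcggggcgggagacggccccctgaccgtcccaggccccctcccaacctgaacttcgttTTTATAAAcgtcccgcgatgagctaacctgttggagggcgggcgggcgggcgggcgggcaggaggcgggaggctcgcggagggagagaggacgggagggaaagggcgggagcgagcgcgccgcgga
Hoxd12 chr2:74674763-74675012, plus strand: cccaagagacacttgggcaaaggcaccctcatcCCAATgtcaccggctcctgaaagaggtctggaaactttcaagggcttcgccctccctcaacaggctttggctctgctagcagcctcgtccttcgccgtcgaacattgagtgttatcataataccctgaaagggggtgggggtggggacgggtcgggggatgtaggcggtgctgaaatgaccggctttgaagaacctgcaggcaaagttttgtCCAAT
Hoxa13 chr6:52260881-52261130, minus strand: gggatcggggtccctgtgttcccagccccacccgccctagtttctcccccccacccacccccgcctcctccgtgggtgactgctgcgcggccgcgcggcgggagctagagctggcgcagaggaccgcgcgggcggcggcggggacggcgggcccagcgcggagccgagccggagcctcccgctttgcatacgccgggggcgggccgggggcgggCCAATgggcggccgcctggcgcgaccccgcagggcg
Hoxa10 chr6:52240855-52241104, minus strand: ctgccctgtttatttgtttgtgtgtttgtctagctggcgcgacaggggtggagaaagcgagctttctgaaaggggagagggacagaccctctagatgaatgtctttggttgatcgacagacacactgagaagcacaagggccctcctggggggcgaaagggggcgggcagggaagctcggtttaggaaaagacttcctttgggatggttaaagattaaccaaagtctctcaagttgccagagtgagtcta
The Hoxd13 window was 74.4% G and C and held overlapping TATAAA and TTTATA letters, the Hoxa13 window was 80.0% G and C, and the windows of Hoxd12 and Hoxa10 were at 55.6% and 51.6%. RefSeq windows matched 22 of the 39 genes, with 24 windows. TATAAA (either strand) occurred in 4 of 24 (16.7%), against 12.4% of all 32851 windows, and CCAAT (either strand) in 14 (58.3%), against 33.8%. TGATNNAT, a site of the kind bound by Pbx and Hox proteins, occurred in 4 (16.7%), against 7.7%, TTTATTG, preferred by 5′ Hox proteins, in 1 (4.2%), against 4.2%, and GACCACCC, the core bound by Gli proteins, in 0, against 0.7%. Median G and C content was 58.6% in Hox windows and 52.4% in all windows.

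The second question was what BPDP did to the Hox genes. At 24 h, 10 µM BPDP left the dominant digit gene near its control level, while Hoxc5 was lower. Hoxd13 stood at 233, 251, 257 and 283 CPM with 10 µM, against 243, 261, 269 and 275 CPM in controls. The groups overlap throughout, and the log2 fold change was -0.02 with a 95% interval of -0.22 to 0.18 (adjusted p = 0.937, edgeR). Hoxd12 and Hoxd11 had log2 fold changes of 0.02 and -0.02 (adjusted p = 0.937 and 0.936).

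Hoxc5 stood at 1.41, 1.12, 1.71 and 0.954 CPM with 10 µM, against 7.55, 2.24, 4.55 and 2.70 CPM in controls. The groups do not overlap, on 15 to 28 reads with 10 µM and 41 to 129 in controls, and the log2 fold change was -1.71 ± 0.422 (adjusted p = 0.0312, edgeR). Control replicate 1 is far above the other controls, and without it the log2 fold change was -1.26 (adjusted p = 0.0764). The call was also lost without control replicate 3 or without any one of the 4 libraries of 10 µM (adjusted p up to 0.0974), and the log2 fold change over the 8 runs was -1.94 to -1.26. The authors' deposited table listed Hoxc5 at -0.88 on the log2 scale (adjusted p = 0.00263). Deposited fold changes were also smaller than those here for Hoxb9 over time in controls (-1.13, against -2.06). For the strongly expressed Hoxd13 they were alike (-0.30, against -0.31). Sizes are therefore not directly comparable for low-count genes, and the reason was not tested.

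The other genes near the threshold were in clusters A and C. Hoxa13 stood at 60.6, 71.8, 70.5 and 76.0 CPM with 10 µM, against 53.6, 59.4, 52.6 and 62.6 CPM in controls. The groups overlap by 1 library, and the log2 fold change was 0.30 ± 0.0939 (adjusted p = 0.0761, edgeR; 0.0403 with DESeq2). Hoxa11 stood at 33, 38.3, 31.8 and 38.8 CPM, against 21.7, 31.9, 31.7 and 30.1 CPM in controls (log2 fold change 0.31 ± 0.127, adjusted p = 0.181), while its antisense RNA Hoxa11os fell by 0.43 (adjusted p = 0.0499). Hoxc9, a trunk gene, stood at 0.653, 1.12, 0.794 and 0.699 CPM, against 4.45, 1.04, 2.81 and 1.3 CPM in controls, overlapping by 1 library (log2 fold change -1.56 ± 0.506, adjusted p = 0.0931, 0.0393 with DESeq2). The authors' deposited table listed Hoxc9 at -0.65 (adjusted p = 0.0436) and Hoxa13 at 0.29 (adjusted p = 0.0490) on that scale.

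Over the cluster genes, edgeR called 1 of 34 tested with 10 µM at 24 h, against 6.21% of all tested genes. DESeq2 called 3 of 34, against 1564 of all 15508 tested genes. The groups did not overlap for 1 of 34, against 13.5% of all genes. Log2 fold changes were below 0 for 21 of 34, against 52.6% of all genes, and the median was -0.02, as it was over all genes. By cluster, below 0 were 9 of 9 genes of cluster C (median -0.81), 5 of 8 of cluster B (median -0.02), 5 of 10 of cluster A (median 0.01) and 2 of 7 of cluster D (median 0.07). Summed over cluster C, the level was 10.8, 9.64, 14 and 11.2 CPM per kb with 10 µM, against 27.5, 12.2, 20.2 and 13.3 CPM per kb in controls. Without control replicate 1, 6 of 9 cluster C genes were below 0 (median -0.26). Cluster B gave 7 of 8 below 0 (median -0.68) without 10 µM replicate 4 and 3 of 8 (median 0.22) without 10 µM replicate 3. Cluster A had a median of -0.03 without control replicate 3, and cluster D gave 0 of 7 below 0 without control replicate 4 or 10 µM replicate 1. Leaving out control replicate 2 called 3 (Hoxa10, Hoxc5 and Hoxc9), and leaving out 10 µM replicate 4 called 1, Hoxb4 in place of Hoxc5. A paired fit with a term for replicate number called 2 of 34, Hoxc5 and Hoxa13.

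**Figure D4:**
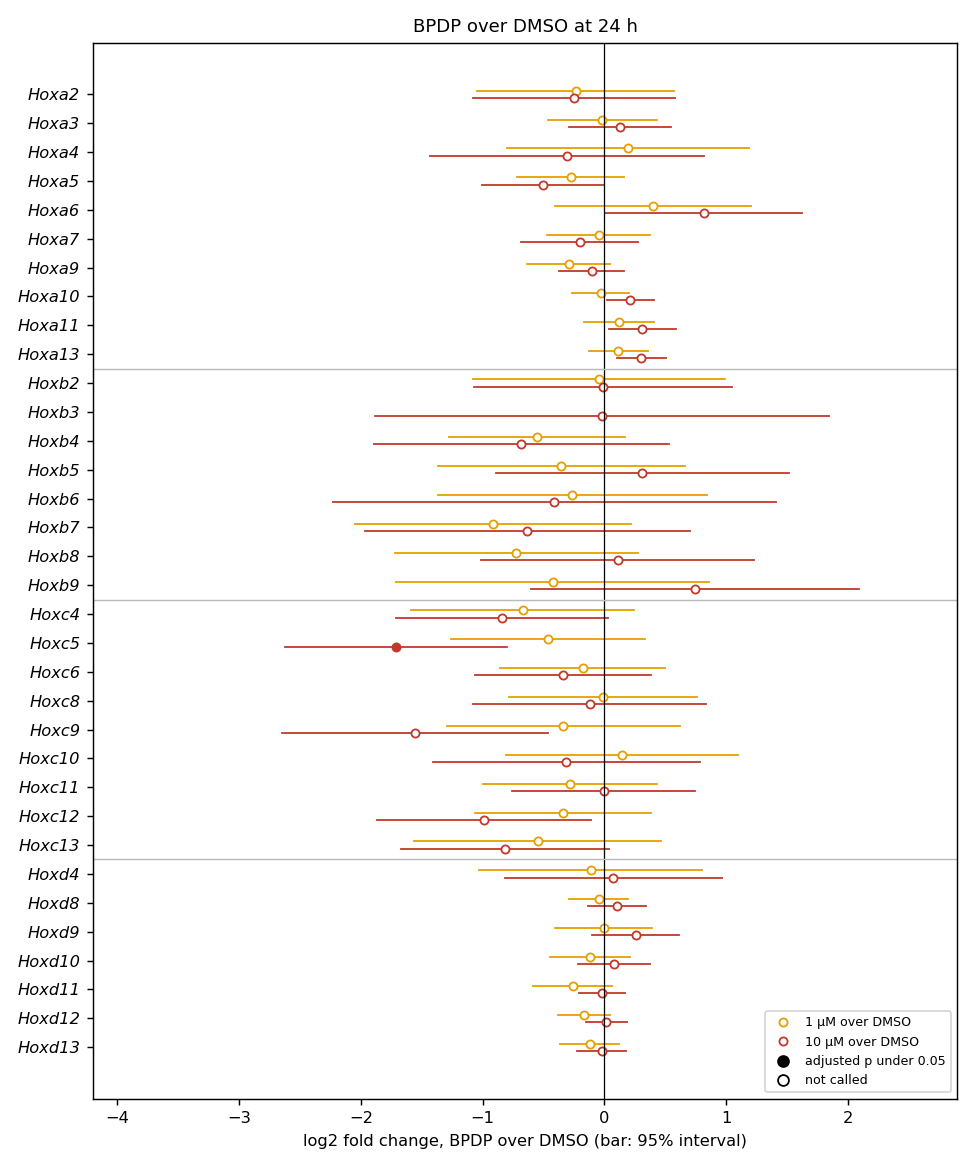
Log2 fold change of each tested Hox gene at 24 h, 1 µM and 10 µM BPDP over DMSO (points, bars are 95% intervals), with lines dividing the clusters; filled points have an adjusted p under 0.05. Hoxc5 with 10 µM is the one filled point. All 9 Hoxc points with 10 µM lie below 0, the nearest at -0.004, and Hoxd points lie between -0.26 and 0.26.

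With 1 µM at 24 h, edgeR called 0 of 33, against 0.0770% of all genes, DESeq2 also called 0, and 0 had an unadjusted p under 0.05, against 5.89%. Below 0 were 28 of 33 genes, against 53.0% of all genes (median -0.18). These included 7 of 7 in cluster B, 8 of 9 in cluster C and 7 of 7 in cluster D. The comparisons of 1 µM and 10 µM at 24 h use the same control libraries, so their signs are not independent. Without control replicate 1, cluster C gave 5 of 9 below 0 (median -0.01), cluster B 6 of 7 and cluster D 6 of 7. With 10 µM at 3 h, edgeR called 0 of 33, against 0.00644% of all genes, and DESeq2 0. An unadjusted p under 0.05 was found for 2 (Hoxa13 and Hoxd11), against 15.5% of all genes, and 16 of 33 were below 0, against 50.9%. With 1 µM at 3 h, edgeR called 0 of 32 and DESeq2 0, against 0% of all genes, 1 (Hoxa13) had an unadjusted p under 0.05, against 5.19%, and 24 of 32 were below 0, against 53.4%.

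Both comparisons at 3 h use the same 4 control libraries. Hoxa13 at 3 h stood at 78.2, 86.1, 93.1 and 79.8 CPM with 10 µM, against 66.1, 76.3, 73.5 and 60.8 CPM in controls, groups that do not overlap (log2 fold change 0.22 ± 0.0826, adjusted p = 0.224, edgeR). With 1 µM at 3 h it stood at 74.0, 73.3, 77.8 and 89.8 CPM, and the log2 fold change over the same controls was 0.21 ± 0.0776 (adjusted p = 0.930). Its difference from control at 10 µM was 0.08 larger at 24 h than at 3 h on the log2 scale, with a 95% interval of -0.20 to 0.37. Hoxd13 at 3 h stood at 325, 341, 368 and 373 CPM with 10 µM, within 0.03 of controls on the log2 scale (95% interval -0.16 to 0.22).

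Between the doses of BPDP at 24 h, edgeR called 0 of 36 Hox genes, against 3.35% of all genes. An unadjusted p under 0.05 was found for 6, against 16.5%. DESeq2 called 2 of 36, Hoxc5 and Hoxc9, against 843 of all 16691 genes. Hoxc5 stood at 1.41, 1.12, 1.71 and 0.954 CPM with 10 µM, against 2.82, 2.75, 3.13 and 3.95 CPM with 1 µM, and the groups do not overlap (log2 fold change -1.25 ± 0.379, adjusted p = 0.0660), and it was the 1 gene called with a replicate block. Hoxa10 stood at 118, 126, 114 and 127 CPM with 10 µM, against 92.2, 95.7, 107 and 123 CPM with 1 µM (log2 fold change 0.24 ± 0.0824, adjusted p = 0.114), and it was the 1 gene called without 1 µM replicate 4. At 3 h, edgeR called 0 of 36, against 0% of all genes, 2 (Hoxa9 and Hoxb3) had an unadjusted p under 0.05, against 8.30%, and DESeq2 called 0.

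Whether the effect of BPDP differed between times was tested as the effect at 24 h minus that at 3 h. For 10 µM, edgeR called 0 of 36 Hox genes, against 2.59% of all genes, DESeq2 called 0, and 4 had an unadjusted p under 0.05, against 14.3%. These were Hoxa11 (log2 difference 0.35), Hoxc5 (-1.11), Hoxc9 (-1.09) and Hoxc12 (-1.30), with adjusted p of 0.198 to 0.338. Without 10 µM replicate 4 of 24 h, 1 gene was called, Hoxb4. For 1 µM, edgeR called 0 of 36, against 0.0359% of all genes, DESeq2 0, and 0 had an unadjusted p under 0.05, against 3.44%.

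Marker genes of other cells moved with 10 µM at 24 h, when 6.21% of all tested genes were called. The 8 cell cycle markers all fell, with sums of 426 to 473 CPM, against 737 to 861 CPM in controls. Macrophage markers fell for 5 of 6, with sums of 42.4 to 62.9 CPM, against 126 to 181 CPM, and endothelial markers for 4 of 6. Of 6 RNA quality and stress genes 2 rose, with sums of 238 to 272 CPM, against 170 to 325 CPM, while 1 of 6 epidermis and 1 of 6 skeletal muscle markers fell. Of 5 limb mesenchyme markers 1 fell, and their sums were 908 to 977 CPM, against 885 to 999 CPM. Neuron and spinal cord markers, a tissue with strong expression of clusters B and C, summed to 10.6 to 15.3 CPM, against 13.3 to 18.3 CPM. Their part in the Hox results was not tested.

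The third comparison was by replicate number, since deviations of same-numbered libraries were weakly correlated (0.0871 to 0.361). Replicate 1 was the lowest library for Hoxd10 in 5, Hoxd9 in 4, Hoxd11 in 3 and Hoxd12 in 2 of 6 groups. Hoxd9, which acts in the upper arm and forearm, averaged 33.2, 39.6, 44.2 and 44.3 CPM in replicates 1 to 4 (means of 6 groups), with replicate 1 below its group mean in 6 of 6 groups. Hoxd13 averaged 267, 300, 308 and 311 CPM, and replicate 1 was the lowest library in 6 of 6 groups. In the fit of 24 libraries with group and replicate number, edgeR called 2 of 36 Hox genes by replicate number. That share is near the 5.48% of all genes. The 2 were Hoxd9 (adjusted p = 0.00500) and Hoxd13 (adjusted p = 0.0289, edgeR). DESeq2 called 2 of 36, against 1427 of all 16691 genes. Relative to replicate 1, Hoxd9 was higher by 0.24, 0.44 and 0.44 and Hoxd13 by 0.12, 0.22 and 0.24 on the log2 scale in replicates 2, 3 and 4.

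Hoxa13 averaged 63.7, 70.9, 73.2 and 73.2 CPM in replicates 1 to 4 (adjusted p = 0.119, edgeR) and Hoxd10 averaged 39.4, 48.7, 47 and 47.9 CPM (adjusted p = 0.134). Some cluster C genes lay the other way, with Hoxc4 at 4.47, 3.02, 3.33 and 2.98 CPM and Hoxc10 at 2.12, 1.34, 1.11 and 1.64 CPM in replicates 1 to 4. Without replicate 1, 0 of the Hox genes were called (Hoxd9 adjusted p = 0.186, Hoxd13 adjusted p = 0.395, edgeR). Without replicate 3 or 4, Hoxd9 remained called and Hoxd13 was not (adjusted p = 0.122 and 0.134). Of the marker lists, 5 of 6 cartilage, 2 of 6 Schwann cell, 2 of 6 proximal limb and 1 of 8 cell cycle genes were called by replicate number, against 5.48% of all genes. What the number marks is not given in the sources used here, and the part of those markers in the result was not tested.

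**Figure D5:**
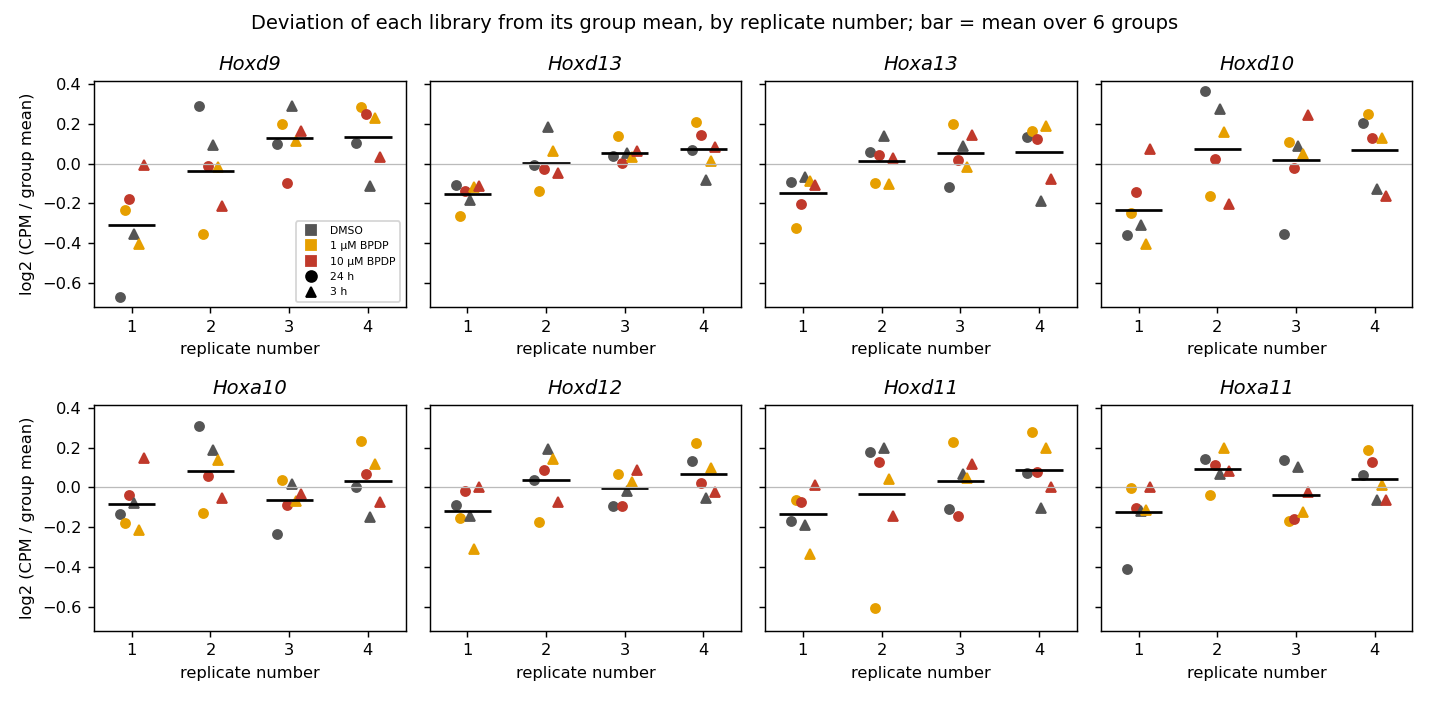
Log2 ratio of each library to its group mean for 8 Hox genes, by replicate number, with colour for dose, symbol for time and a bar for the mean of 6 groups. All 6 points of replicate 1 lie below 0 for Hoxd9, Hoxd13 and Hoxa13.

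Genes that act with the Hox genes were then read from lists. The 9 cofactors of the TALE class (Pbx, Meis and Pknox), which bind DNA together with Hox proteins, gave 0 calls with edgeR and 0 with DESeq2 for 10 µM at 24 h, with 1 of 9 at an unadjusted p under 0.05 (median log2 fold change -0.03). Over time 9.55% of all tested genes were called in controls, 22.1% with 1 µM and 31.7% with 10 µM. Of the 9 cofactors 1 fell with 1 µM (Pbx2) and 5 with 10 µM, while in controls edgeR called 0, DESeq2 called 1 and 2 had an unadjusted p under 0.05. With 10 µM Meis1 fell by 0.48 ± 0.143 (adjusted p = 0.0176) and Meis2 by 0.50 ± 0.130 (adjusted p = 0.00782, edgeR). Of 21 Polycomb and Trithorax regulators, which hold Hox genes off or on, 3 in controls, 5 with 1 µM and 5 with 10 µM were called over time, against those same shares of all genes. Ezh2, the methyltransferase of Polycomb, fell by 0.39 in controls, 0.59 with 1 µM and 0.84 with 10 µM on the log2 scale, and Cbx2, a reader of its mark, by 0.38, 0.44 and 0.82. With 10 µM at 24 h, 2 of 21 were called, against 6.21% of all genes. Cbx2 was lower (-0.46 ± 0.0858, adjusted p = 0.00683) and Bmi1 higher (0.41 ± 0.103, adjusted p = 0.0336, edgeR).

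Of 15 tested genes upstream of the limb Hox genes, 2 were called with 10 µM at 24 h, when 6.21% of all tested genes were: Grem1, a BMP antagonist, rose by 0.58 ± 0.142 (adjusted p = 0.0306) and Gmnn, a replication inhibitor, fell by 1.19 ± 0.159 (adjusted p = 0.000867, edgeR). Of 11 retinoic acid genes, the pathway that switches on 3′ Hox genes, 3 fell: Cyp26a1 by 2.40, Dhrs3 by 0.82 and Crabp1 by 0.47. Of 15 limb genes known to be controlled by Hox proteins, 4 fell with 10 µM at 24 h (6.21% of all genes were called), namely Runx3 by 1.90, Bmp7 by 0.88, Runx2 by 0.83 and Dlx5 by 0.55, and the median of the list was 0.01. Runx2 and Runx3 are regulators of bone and cartilage. Over time 5 of 15 were called in controls, 7 with 1 µM and 8 with 10 µM, against 9.55%, 22.1% and 31.7% of all genes. In that order of doses Msx2 fell by 1.00, 0.83 and 0.99, Lhx9 by 0.84, 0.72 and 0.82 and Shox2 by 0.44, 0.58 and 0.44 on the log2 scale.

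Non-coding RNAs and neighbours of the clusters gave few calls. Of 7 tested non-coding RNAs, Hoxa11os was the 1 called with 10 µM at 24 h, against 6.21% of all genes. It stood at 67.4 to 92.6 CPM, against 95.7 to 149 CPM in controls, and these groups do not overlap. Hottip, an RNA at the 5′ end of cluster A that is known to keep nearby Hoxa genes active, fell by 0.85 ± 0.226 over time with 1 µM (adjusted p = 0.0135, edgeR). Hotair, the RNA of cluster C, was at 0.0542 to 1.26 CPM over the 24 libraries and below the limit for testing in each pair of groups. Evx2, next to Hoxd13, stood at 16.1 to 41.2 CPM and differed by 0.14 on the log2 scale with 10 µM at 24 h (adjusted p = 0.522). Evx1, next to Hoxa13, fell by 2.13 ± 0.543 over time with 1 µM (adjusted p = 0.0106, edgeR). Over time with 1 µM 22.1% of all genes were called, against 1 of 7 non-coding RNAs and 2 of 13 tested genes flanking the clusters.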

How the data were processed

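The submitters' processing notes name STAR 2.5 and HTSeq 0.6.1 on the mm10 build, beside CASAVA 1.8 and DESeq2 (listed as version 2), as the tools the authors used. The authors deposited 5 pairwise tables with raw read counts per gene and library, their own log2 fold changes, and their p-values and adjusted p-values. Further per-sample columns (50) were not used. Counts of libraries found in several tables did not differ (0 differing values), so the tables were joined by gene identifier. Values absent from a table (34232 gene and library pairs) were set to 0. Library totals give the depth, and standard errors the precision.

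Counts scaled by TMM were tested in R 4.3.3 with the robust quasi-likelihood test of edgeR 4.0.16, after filtering by filterByExpr at a minimum count of 10 and a total of 15. Fits held 8 libraries for each pair of groups and 24 for dose contrasts, effects between times and replicate number. A gene was called at a Benjamini-Hochberg adjusted p under 0.05 over all genes tested. Below the filter in every pair of groups were 5 members, Hoxb1 and Hoxb13 among them. In some pairs Hoxb3, Hoxb6 or Hoxa4 joined them. Some items are not reported here. CPM used library totals, and CPM per kb the deposited gene length. The steps were tested on simulated data.

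Same-numbered libraries deviated together only weakly. Correlations of their deviations were 0.14 to 0.361 and 0.153 to 0.344 for 10 µM and 1 µM at 24 h, 0.107 to 0.28 and 0.112 to 0.353 at 3 h, and 0.124 to 0.285 and 0.146 to 0.248 over time with 1 µM and 10 µM. All 4 pairs exceeded 0.1 there. Over time in controls they were 0.0871 to 0.343, with 3 of 4 pairs over 0.1. At 24 h the highest correlation of a library was with its own number for 3 of 4 (10 µM) and 4 of 4 (1 µM). At 3 h it was so for 2 of 4 (10 µM) and 3 of 4 (1 µM). Over time it was so for 3 of 4 in controls, 2 of 4 with 1 µM and 1 of 4 with 10 µM.

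All 39 members could be named, those called and the group 11 and 13 genes of clusters A and D with values per library, and up to 4 called members of each gene list. Members and lists were chosen with earlier results of these data known. Alternatives were DESeq2 1.42.0, other scaling and filters, a replicate block, a term for or fits within replicates 1 and 2 and replicates 3 and 4, a fit of all libraries and leaving out each library.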

Additional observations from a re-analysis of the deposited data

Results flagged for a closer look

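Within groups of 4 libraries, 11 Hox genes in 6 groups (66 sets of values) were checked for a single library that stood far from the others, and 4 were found. Chance alone marks about 1 in 20 such sets. Hoxa10 stood at 162 CPM in replicate 1 of 10 µM BPDP at 3 h, where the other 3 libraries were at 139 to 143 CPM. Hoxb9 stood at 2.10 CPM in replicate 4 of 10 µM BPDP at 24 h, where the others were at 0.55 to 0.703 CPM. Hoxc4 stood at 3.15 CPM in control replicate 4 at 3 h, where the others were at 5.04 to 5.20 CPM. Hoxc4 also stood at 7.49 CPM in control replicate 1 at 24 h, where the others were at 2.41 to 2.73 CPM.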

How the results depend on the processing

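For 10 µM BPDP at 24 h (1 Hox gene called), DESeq2 and a fit of all 24 libraries called 3 each, a replicate block 2, a term for replicates 1 and 2 against 3 and 4 called 2, fits within replicates 1 and 2 or within 3 and 4 called 0 each, and leaving out a library gave 0 to 3. Over time in controls (2), DESeq2 called 4 of 32, against 2204 of all 15640 genes. For that comparison fits within replicates 1 and 2 called 0 and within 3 and 4 called 1, and leaving out a library gave 0 to 2. Over time with 1 µM (6), replicates 1 and 2 alone gave 2 and leaving out a library 3 to 6, and with 10 µM (5), replicates 1 and 2 alone gave 1 and leaving out a library 4 to 7. Between doses at 24 h (0), DESeq2 called 2, a replicate block 1, and leaving out a library gave 0 to 1. The 10 µM effect at 24 h minus that at 3 h (0) gave 0 to 1. Replicate number (2) gave 0 in 3 h libraries alone, 0 in 24 h libraries alone, and 0 to 2 without 1 replicate number. The averaged time contrast (12) gave 9 to 14 without 1 library, 12 with DESeq2 and 14 with a replicate block. With the replicate block, time comparisons called 2 in controls, 7 with 1 µM and 7 with 10 µM. Halved samples carry fewer libraries, and the cause of the other shifts was not tested. No called Hox gene changed direction under the alternatives run, while medians of clusters A and B with 10 µM at 24 h changed sign when single libraries were left out (-0.03 to 0.09 for A, -0.68 to 0.22 for B). Depth limits genes of clusters B and C, where 24 h libraries held 4 to 17 reads of Hoxb9 in controls and with 1 µM.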
